A study of Mus musculus with 4 samples.

Results

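Collagen chain mRNAs were examined in RPS2 eCLIP and total RNA libraries of mouse primary cortical neurons. Members were all protein-coding genes whose GENCODE M21 symbol, looked up by Ensembl identifier, consists of Col, a type number, the letter a and a chain number. This gave 44 genes of the 31053 counted. Chains were chosen by name, but the comparison of RPS2 immunoprecipitate (IP) with total RNA, and the setting of Col8a1 against the other chains, came from earlier results of the same libraries. IP over total RNA values of the chains are therefore given as a description, without p-values, and support nothing by themselves.

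The cultures came from cortices of wild-type C57BL/6J mouse embryos, grown with floxuridine to limit dividing cells. No transgene or other allele is named for either group. In eCLIP, RNA is crosslinked to protein in the cell, fragmented with RNase I and recovered with an antibody, here against endogenous RPS2, which sits in the small subunit of the ribosome, so that the recovered fragments can be set against total RNA as a readout of ribosome association. There were 2 IP and 2 total RNA libraries, numbered replicate 1 and replicate 2, and total RNA was set aside from the samples before IP. By the labels, only the IP libraries were treated, namely by ribosomal RNA depletion, while the methods describe the step without naming the libraries. An effect of that step and of the IP cannot be told apart. The labels do not say whether the replicates were separate cultures.

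Collagens are secreted or membrane-anchored proteins whose chains wind around each other into a long helix, for which glycine must recur at a fixed spacing along the chain. Their mRNAs are translated at the endoplasmic reticulum, where the nascent chains are hydroxylated, glycosylated and folded. In brain, type IV collagen is the network collagen of the vascular and pial basement membranes, fibrillar collagens are mostly made by meningeal and perivascular fibroblasts, and some transmembrane and fibril-associated collagens are made by neurons themselves.

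The repeat that defines the family is shown for 6 chains as an illustration. Since chains were chosen by the family name, its presence in them is not a result. Col8a1 is the chain set against the others, Col10a1 is the other short chain that passed the count filter, Col4a1 and Col4a2 had the most collagen counts, Col5a1 was called lower in the IP at high counts, and Col26a1 had a short helix and a level near that of Col5a1. Each sequence is the first 6 codon triplets of the longest unbroken Gly-X-Y run in a coding transcript of GENCODE M21 (GRCm38, the build also named mm10), 5′ to 3′ on the coding strand, and the capitals mark the codon that opens each triplet, always a glycine codon.
Col8a1, chr16:57628030-57628083, minus strand, run of 60 triplets: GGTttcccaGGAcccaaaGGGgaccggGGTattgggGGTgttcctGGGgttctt
Col10a1, chr10:34394937-34394990, plus strand, run of 60 triplets: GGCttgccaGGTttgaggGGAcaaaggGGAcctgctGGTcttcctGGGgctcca
Col4a1, chr8:11247060-11267614, minus strand across an intron, run of 40 triplets: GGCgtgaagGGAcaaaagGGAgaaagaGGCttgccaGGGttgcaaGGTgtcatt
Col4a2, chr8:11429447-11429500, plus strand, run of 66 triplets: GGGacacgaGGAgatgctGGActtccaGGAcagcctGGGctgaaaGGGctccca
Col5a1, chr2:27964080-27965259, plus strand across an intron, run of 338 triplets: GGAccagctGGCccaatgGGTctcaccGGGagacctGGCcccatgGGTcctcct
Col26a1, chr5:136754970-136757641, minus strand across an intron, run of 23 triplets: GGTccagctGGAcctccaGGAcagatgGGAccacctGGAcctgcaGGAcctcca
The fibrillar chain Col5a1 had an unbroken run of 338 triplets, whereas the longest runs of the 4 network chains printed, of types IV, VIII and X, had 40 to 66 triplets. The short-chain mRNAs Col8a1 and Col10a1 each had a run of 60 triplets. A relation of the longest run to the IP over total RNA ratio was not tested.

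Library totals ran from 4899718 to 16460545 counts and were lower in total RNA than in IP. A single gene took 15.3 to 42.6% of the counts of a library, so levels are CPM, counts scaled by effective (TMM) library size to a common total, and levels of different genes are compared only per kilobase of exonic length. Neuron markers summed to 4067 to 4594 CPM in the 4 libraries, and all 9 listed markers passed the count filter. Markers of other cells were present too, and the sums for astrocytes, microglia and mural cells differed more between replicate numbers than between IP and total RNA. The summed astrocyte markers were at 3624 and 2960 CPM in replicate 1 (IP, then total RNA) and at 1555 and 1411 CPM in replicate 2. Microglial markers were at 84.8 and 89.3 CPM against 7.28 and 5.92 CPM. Mural cell markers were at 100 and 109 CPM against 31.5 and 39.3 CPM. The mural sum was mostly Notch3, at 64.6 and 79.3 CPM in replicate 1. Rgs5, Abcc9 and Kcnj8 had at most 6 counts in a library. In total RNA, Rgs5 and Abcc9 had 0 counts in replicate 1 and 6 and 4 counts in replicate 2. Endothelial markers summed to at most 2.89 CPM, with Cldn5 at 0 counts in every library, and fibroblast markers to at most 10.5 CPM, with Dpt at 0 in every library. Oligodendrocyte lineage markers summed to 57.0 to 68.0 CPM and choroid plexus markers to at most 2.89 CPM.

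Collagen mRNA was a small part of each library and was spread over many chains. The 44 chains together took 7792 counts in IP replicate 1, 3961 in IP replicate 2, 3183 in total RNA replicate 1 and 2489 in total RNA replicate 2. As shares of all counts these were 0.0473% (95% Wilson interval 0.0463 to 0.0484), 0.0398% (0.0386 to 0.0411), 0.0603% (0.0582 to 0.0624) and 0.0508% (0.0488 to 0.0528), where intervals cover counting error only. Both IP shares thus lay below both total RNA shares, and within each replicate number the intervals did not overlap. On the CPM scale, IP was again below total RNA within each number, at 563 against 709 CPM in replicate 1 and 356 against 409 CPM in replicate 2, but the groups overlapped. Between 40 and 43 chains had at least 1 count in a library.

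Per kilobase of exonic length, the basement membrane chain Col4a2 was the most abundant collagen mRNA in the mean of the total RNA libraries. Its level was 13.3 and 9.11 CPM per kb in total RNA, and 11.5 and 8.91 CPM per kb in IP (replicate 1 first, here and below). Col6a1, a chain of the beaded filaments around basement membranes, followed at 8.29 and 9.38 CPM per kb in total RNA and 7.72 and 7.69 CPM per kb in IP. Col4a1, which pairs with Col4a2 in the commonest type IV collagen, stood at 10.9 and 5.97 CPM per kb in total RNA and 9.09 and 5.37 CPM per kb in IP. Col4a1 was below Col4a2 in each of the 4 libraries. The place of Col6a1 cannot be told from 2 libraries each, since it was below both type IV chains in total RNA replicate 1 and above both in replicate 2. Next came the fibrillar chain Col5a1 at 5.56 and 5.60 CPM per kb in total RNA, and Col26a1, a short collagen with a broken helix, at 5.47 and 5.05 CPM per kb. Col9a2, Col9a3, Col18a1, Col8a1, Col19a1 and Col4a5 formed a further group whose ranges overlapped, with total RNA levels between 1.78 and 6.47 CPM per kb. Col4a1 and Col4a2 together made up 23.9 to 27.8% of all collagen counts of a library. Exonic length includes bases outside coding transcripts, at 2.55% of the length for Col4a2 and 65.9% for Col26a1. Levels per kilobase of coding transcript were not computed, and the order of the chains could differ on that scale.

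**Figure D1:**
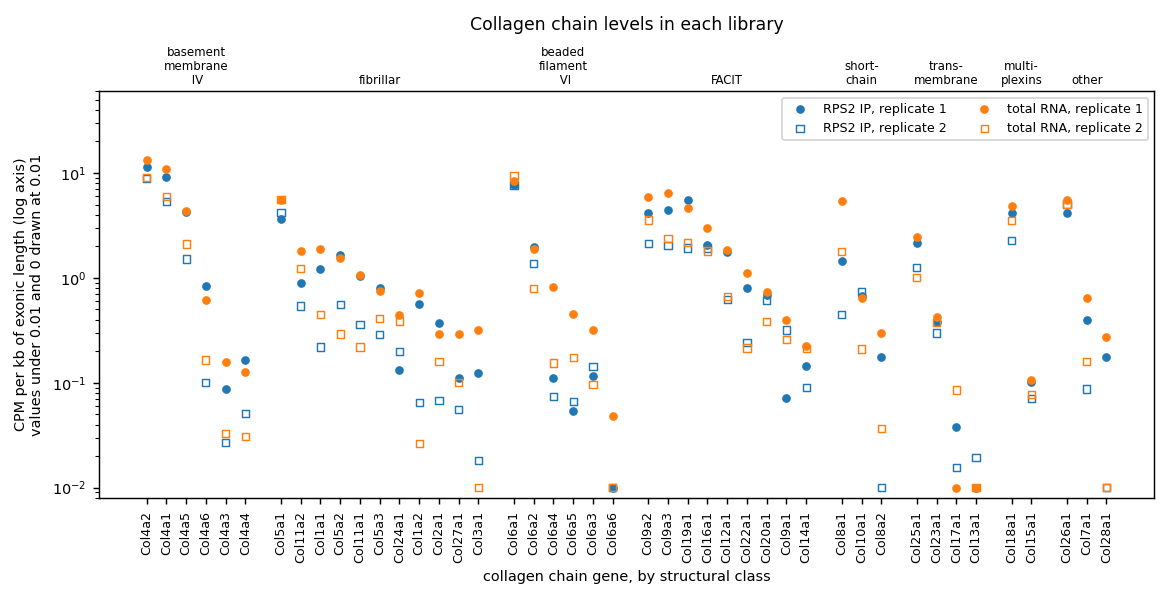
Level of each of the 44 collagen chain genes in CPM per kb of exonic length (log axis) in the 4 libraries, grouped by structural class, with levels under 0.01 drawn at 0.01. Col4a2 reaches 13.3 CPM per kb in total RNA replicate 1, and both RPS2 IP libraries of Col8a1 (1.44 and 0.447) lie below both total RNA libraries (5.40 and 1.78).

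Per kilobase of exonic length, chains that assemble with each other were not at equal levels. Bases outside coding transcripts were 6.39% of this length for Col6a1, 27.8% for Col6a2 and 55.5% for Col1a2, so ratios per kilobase of coding transcript could differ. Col4a1 and Col4a2, which are transcribed away from each other on chromosome 8 (chr8:11198423-11312826, minus, and chr8:11312805-11449287, plus, mm10), kept the steadiest ratio, with Col4a1 at 0.602 to 0.820 of the Col4a2 level per kilobase over the 4 libraries. Col6a1 was 3.90 to 11.9 times as abundant per kilobase as Col6a2, and Col6a3, the usual partner of these chains, reached only 0.0103 to 0.0382 of the Col6a1 level. Col9a2 and Col9a3 were near each other, at a Col9a3 to Col9a2 ratio of 0.671 to 1.10, while Col9a1 was at 0.0173 to 0.151 of Col9a2. Col1a1 and Col1a2, the chains of the main fibrillar collagen of connective tissue, were at 1.90 and 0.451 and at 0.717 and 0.0265 CPM per kb in total RNA. The chain Col3a1, which accompanies them in fibroblasts, had 17 and 2 counts in IP and 14 and 0 in total RNA.

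IP was then compared with total RNA within each replicate number, with log2 ratios computed from CPM with a prior count of 2. A fit across all genes (edgeR quasi-likelihood test with the replicate number as a block) could be made for 35 of the 44 chains, which passed the filter on low counts, among 12336 genes. Of these chains 4 (Col6a4, Col6a5, Col14a1 and Col27a1) reached the filter's 1.31 CPM in total RNA libraries only, so that a low IP level was part of how they entered, and 0 entered through IP libraries only. Over the 35 chains the median log2 ratio was -0.24 in the fit, -0.34 in replicate 1 and -0.29 in replicate 2. The medians over all genes tested were 0.011, 0.012 and 0.0075. The IP level was below the total RNA level in both pairs for 20 chains, above it in both for 3 chains (Col5a2, Col6a2 and Col10a1), and mixed for 12. Over all genes tested, 32.2% were below and 34.3% above in both pairs.

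The fit called 0 chains higher and 6 lower at an adjusted p under 0.05, where 6.63% of all genes tested were called higher and 7.55% lower (14.2% in either direction). The 6 chains were Col8a1, Col5a1, Col9a2, Col11a2, Col6a4 and Col6a5. Without the replicate block 0 chains and 0 of the 12336 genes were called, and at an unadjusted p under 0.05 there were 4 chains and 349 genes. DESeq2 with the block called 0 chains lower, and 1 (Col8a1) when its filter on low means was left out, where 3.1% and 2.07% of all genes were called lower. These counts are a description, as the contrast was among the values that led to the choice of the chains. Across the 35 chains the ratios of the 2 pairs correlated with each other at 0.41 (Spearman) and 0.43 (Pearson), a description over genes read in the same libraries.

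**Figure D2:**
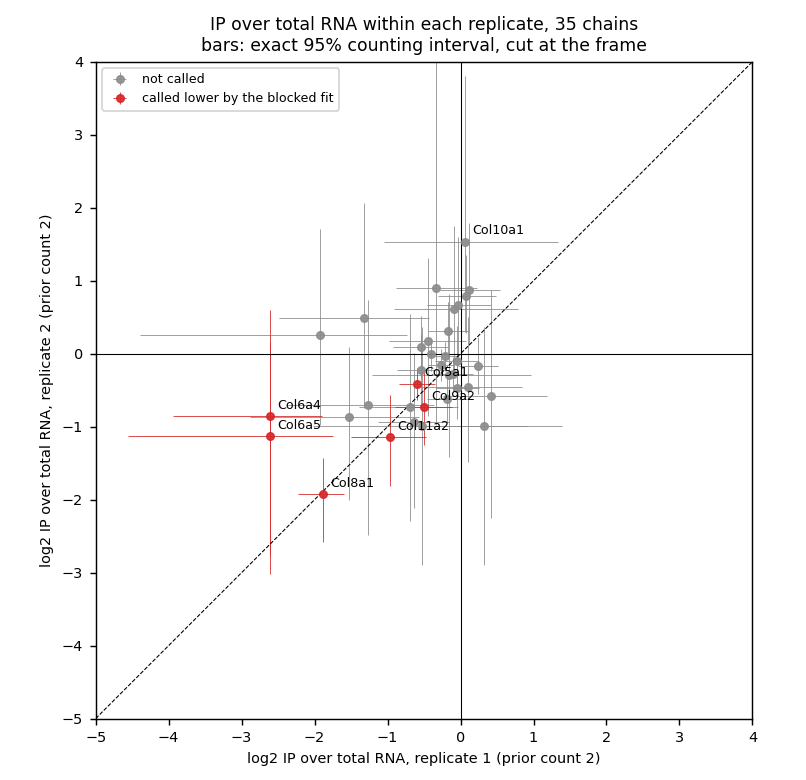
Log2 IP over total RNA in replicate 1 (horizontal) and replicate 2 (vertical) for the 35 chains tested, with exact 95% counting intervals and the line of equal ratios dashed. Col8a1 lies on the line at -1.89 and -1.93, while Col6a4 and Col6a5 lie at -2.61 in replicate 1 with intervals that span 0 in replicate 2.

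Col8a1 (ENSMUSG00000068196, chr16:57624258-57754737, minus strand, mm10) encodes a short chain of network-forming type VIII collagen, known from vessel walls and from the basement membrane of the corneal endothelium. It had 156 and 39 counts in IP and 190 and 85 in total RNA. Its level was 1.44 and 0.447 CPM per kb in IP against 5.40 and 1.78 CPM per kb in total RNA, so that the IP values lay below either total RNA value. The log2 ratio was -1.89 in replicate 1 (exact 95% counting interval -2.22 to -1.59) and -1.93 in replicate 2 (-2.58 to -1.43), which corresponds to levels 3.70-fold and 3.81-fold higher in total RNA. The fit gave -1.94 ± 0.21 (SE). Among the 12336 genes tested, 20 had a lower fitted value, and among the chains 2 did.

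The pairs differed less from each other in this ratio than the replicate numbers did in the level of Col8a1. The level was higher in replicate 1 than in replicate 2 by 1.58 in total RNA and by 1.63 in IP on the log2 scale. Its share of all collagen counts was 2.00% and 0.985% in IP against 5.97% and 3.42% in total RNA. Among the 16 chains with at least 30 counts in every library, the fitted log2 ratios of the other chains ran from -1.08 to 0.40. The value of Col8a1, -1.94, lay outside this range, but Col8a1 was singled out for its ratio, so this is a description. The 2 chains with lower fitted values, Col6a4 and Col6a5, were below that count limit.

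The other short-chain collagens could be followed only at low counts. Col8a2, which encodes the partner chain in type VIII collagen, had 11 and 0 counts in IP and 6 and 1 in total RNA and was not tested. Col10a1, a short chain known from hypertrophic cartilage, had 29 and 26 counts in IP and 9 and 4 in total RNA. Its log2 ratios were 0.06 and 1.54, and the fit gave 0.82 ± 0.56, the highest value among the 35 chains, without a call. A low IP level was thus not seen in all members of this class.

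The remaining chains called lower differed from Col8a1 in depth, in size or in their stability to the model. Col5a1, which starts the assembly of collagen fibrils, had 432 and 397 counts in IP and 212 and 289 in total RNA. Its level was 31.2 and 35.7 CPM in IP against 47.2 and 47.5 CPM in total RNA, with no overlap of the groups and a fitted log2 ratio of -0.50 ± 0.13. Col11a2, a fibrillar chain of cartilage, had 85 and 41 counts in IP and 55 and 51 in total RNA. This corresponded to 6.14 and 3.68 CPM against 12.2 and 8.38 CPM, and the fit gave -1.08 ± 0.28. Both IP libraries were below both total RNA libraries for Col11a2 as well.

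Col9a2, a fibril-associated chain, had 177 and 73 counts in IP and 82 and 67 in total RNA, or 12.8 and 6.56 CPM against 18.3 and 11.0 CPM. The groups overlapped, and the fitted log2 ratio was -0.62 ± 0.23. Col6a4 and Col6a5, long chains that can take the place of Col6a3 in type VI collagen, had low counts throughout. Col6a4 had 13 and 7 counts in IP and 31 and 8 in total RNA, with log2 ratios of -2.61 and -0.85. Col6a5 had 7 and 7 counts in IP and 19 and 10 in total RNA, with log2 ratios of -2.61 and -1.13. For both chains the exact 95% counting interval reached above 0 in replicate 2, to 0.59 for Col6a4 and 0.15 for Col6a5. Their fitted values of -2.23 ± 0.55 and -2.30 ± 0.60 were below that of Col8a1 by less than 1 SE.

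The 29 chains tested but not called had 21 fitted values below 0 and 8 above, from -1.31 for Col24a1 to 0.82 for Col10a1. Most of the abundant chains were among them. Col4a2 had 1054 and 657 counts in IP and 396 and 367 in total RNA, and a fitted log2 ratio of -0.12 ± 0.11. Col4a1 had 939 and 446 counts in IP and 366 and 271 in total RNA, with -0.21 ± 0.12. For both type IV chains the IP level was below total RNA in each pair, by at most 0.26 on the log2 scale.

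Col6a1 had 468 and 375 counts in IP and 163 and 250 in total RNA, and a fitted log2 ratio of -0.20 ± 0.13. Col26a1 had 466 and 457 counts in IP and 201 and 251 in total RNA, with -0.20 ± 0.13. Both chains were abundant, and both had a lower IP level in each pair. For Col26a1 the log2 ratio was -0.41 in replicate 1 but only -0.007 in replicate 2, with a counting interval of -0.23 to 0.22. Col18a1, whose C-terminal fragment is endostatin, had 407 and 178 counts in IP and 151 and 151 in total RNA, with -0.40 ± 0.15. Col4a5, a type IV chain encoded on the X chromosome, had 394 and 113 counts in IP and 132 and 86 in total RNA, with -0.22 ± 0.17. The IP level of these chains was below total RNA in each pair as well.

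Among the collagens made by neurons, Col25a1, a transmembrane collagen found in amyloid plaques, had 387 and 182 counts in IP and 141 and 80 in total RNA. Its log2 ratios were -0.17 and 0.31. Col19a1, a fibril-associated collagen of interneurons, had 524 and 148 counts in IP and 144 and 91 in total RNA, with log2 ratios of 0.24 and -0.17. Neither mRNA kept a direction over the pairs, and the fitted values were 0.04 ± 0.17 and 0.07 ± 0.16.

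By structural class, 2 of 10 fibrillar chains tested were called lower (Col5a1 and Col11a2), where 7.55% of all genes tested were called lower, and the class median was -0.36. The other fibrillar chains tested were Col1a1, Col1a2, Col2a1, Col5a2, Col5a3, Col11a1, Col24a1 and Col27a1. Of the 4 type IV chains tested (Col4a1, Col4a2, Col4a5 and Col4a6) 0 were called, with a median of -0.17. Of the 5 type VI chains tested (Col6a1 to Col6a5) 2 were called lower, with a median of -0.58, and both (Col6a4 and Col6a5) had passed the filter through total RNA only. Of the 9 fibril-associated chains (Col9a1, Col9a2, Col9a3, Col12a1, Col14a1, Col16a1, Col19a1, Col20a1 and Col22a1) 1 was called lower, with a median of -0.26. The transmembrane chains Col23a1 and Col25a1, the multiplexin Col18a1, and Col7a1 and Col26a1 gave 0 calls. All class medians were below 0 in this fit, against 0.011 over all genes tested, but with the offset for GC and length described next those of type IV (0.10) and transmembrane chains (0.01) were above 0.

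Collagen mRNAs were rich in G and C and long. The median GC content of the chains tested was 55.3% against 50.5% for all genes tested, and the median exonic length 7621 against 4672 bases. Where the fit carried an offset for the trend of the ratio with GC content and length over all genes, the median over the chains moved from -0.24 to -0.071, and 3 chains were called lower, Col8a1, Col6a4 and Col6a5, where 3.1% of all genes tested were called lower. Col5a1 (-0.22), Col9a2 (-0.35) and Col11a2 (-0.66) lost their calls, and 7 chains, all without a call, changed sign from below to above 0. These were Col4a1 (0.02), Col4a2 (0.19), Col26a1 (0.08), Col16a1 (0.09), Col12a1 (0.05), Col5a3 (0.19) and Col2a1 (0.18). Col6a2 moved from 0.40 to 0.65, with its adjusted p (edgeR) at the threshold. Col8a1 moved little, from -1.94 to -2.02, and its GC content of 45.4% was the lowest of the 35 chains. The size of the family's median thus depended on the offset, whereas the value of Col8a1 moved by less than its SE.

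**Figure D3:**
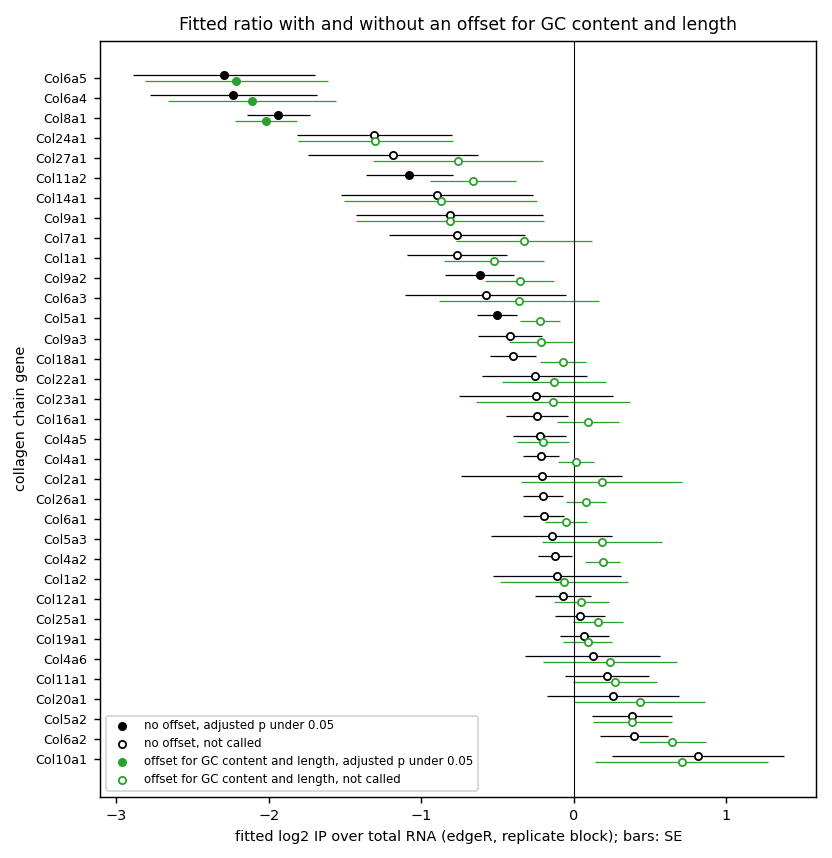
Fitted log2 IP over total RNA (edgeR, replicate block) with SE for the 35 chains, without (black) and with (green) an offset for GC content and length, where filled points have an adjusted p under 0.05. For most chains the value is higher with the offset, and Col8a1 stays at about -2 (-1.94 and -2.02).

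Over the 35 chains the fitted ratio was set against features of the mRNA. Spearman correlations were -0.17 with GC content, 0.005 with exonic length, -0.33 with coding length, 0.20 with the percent of codons in Gly-X-Y runs and 0.35 with the mean level. Pearson correlations were 0.02, -0.06, -0.305, 0.28 and 0.30 in the same order. These are descriptions over genes read in the same libraries. As the ratios of the 2 pairs correlated at only 0.41 (Spearman), the strength of such relations cannot be told. In Col8a1, Gly-X-Y runs took 58.9% of 744 codons, and coding sequence was 43.7% of the transcript. Of the bases counted for Col8a1, 34.8% lay outside its coding transcripts, including 1 retained-intron transcript. Reads from these bases cannot be told from those of the mRNA, and the part they have in the ratio was not tested. Over all protein-coding genes tested, the median log2 ratio was 0.024, -0.018 and 0.011 where this share was 0 to 10, 10 to 30 and 30 to 100%. Such medians over many genes say nothing of the reads of a single gene.

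On the scale of effective library size, the replicate numbers differed in summed collagen mRNA more than IP and total RNA did. On raw library size the reverse held, at 473 and 398 CPM in IP against 603 and 508 CPM in total RNA. The values below are on effective library size. The level was higher in replicate 1 than in replicate 2 in both kinds of library for 27 of 35 chains, lower in both for 1 and mixed for 7, where 38.4% of all genes tested were higher and 37.4% lower in both. The median log2 difference over the chains was 0.77 in IP and 1.09 in total RNA, against 0.0021 and 0.014 over all genes. The chain with the largest excess was Col1a2, at 2.81 in IP and 4.04 in total RNA on the log2 scale, although it had only 9 and 2 counts in replicate 2. Col1a1 followed a like course, with 2.30 and 2.00. Of the other chains tested, Col4a6, Col11a1, Col5a2, Col7a1, Col22a1 and Col8a1 were each higher by at least 1.49 in both kinds of library.

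Some chains did not share this difference. Col5a1 was at -0.19 and -0.01, Col6a1 at 0.01 and -0.18, and Col26a1 at -0.28 and 0.12 (IP, then total RNA, log2 replicate 1 over replicate 2). Summed levels of markers for astrocytes, microglia and mural cells were also higher in replicate 1, as given above, though the mural sum was mostly Notch3. Their part in the collagen levels was not tested, and in bulk samples fewer cells of a type and less RNA per cell cannot be told apart.

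**Figure D4:**
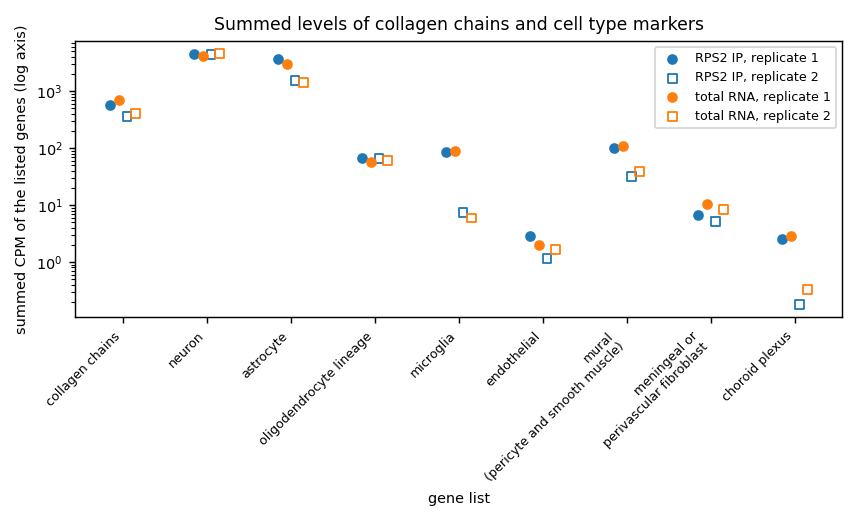
Summed CPM (log axis) of the 44 collagen chains and of the listed cell type markers in the 4 libraries. Collagen chains fall from 709 to 409 CPM between total RNA replicates 1 and 2, and mural markers from 109 to 39.3 CPM, while neuron markers are at 4067 and 4594 CPM.

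The enzymes and partners of collagens were counted from lists written from general knowledge. Of 21 genes for modification, folding and export of procollagen, all passed the filter, 0 were called higher and 3 lower, against 6.63% and 7.55% of all genes tested, with a median log2 ratio of -0.14. Plod3, which hydroxylates and glycosylates collagen lysines, had a level of 55.9 and 41.5 CPM in IP against 65.0 and 63.1 CPM in total RNA (fitted log2 ratio -0.41 ± 0.12, edgeR adjusted p = 0.00647). P3h3, a member of the prolyl hydroxylase family that works with lysine hydroxylation, was at -0.71 ± 0.24 (edgeR adjusted p = 0.0279), and Tmem131, needed for procollagen export from the endoplasmic reticulum, at -0.29 ± 0.10 (edgeR adjusted p = 0.0417).

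Of 12 genes for cleavage and crosslinking 9 passed the filter, with a median of -0.09. Of these 0 were called, where 14.2% of all genes tested were called in either direction. Bmp1, the main procollagen C-proteinase and the most abundant of them, was at -0.22 ± 0.11 (edgeR adjusted p = 0.201). Of 10 receptors 6 passed the filter, and 0 were called, against the same 14.2% of all genes tested, with a median of 0.06. The discoidin domain receptor Ddr1, the most abundant, was at -0.26 ± 0.10 (edgeR adjusted p = 0.0715). The platelet receptor Gp6 had 0 counts in all libraries.

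The basement membrane partners of type IV collagen moved in both directions. Of 16 genes 15 passed the filter, 1 was called higher and 3 lower, against 6.63% and 7.55% of all genes tested, with a median of -0.30. The laminin chain Lama5 was at -0.46 ± 0.11 (edgeR adjusted p = 0.000604), the perlecan gene Hspg2 at -0.45 ± 0.11 (edgeR adjusted p = 0.00117) and the agrin gene Agrn at -0.30 ± 0.10 (edgeR adjusted p = 0.0205). Sparc, a collagen-binding glycoprotein made by astrocytes and vascular cells, was higher at 0.39 ± 0.10 (edgeR adjusted p = 0.00196). It had 11178 and 2242 counts in IP and 2469 and 1064 in total RNA. Of the 9 neuron markers tested 1 was called higher (Snap25, 0.37), and of the 7 astrocyte markers 2 were (Aqp4, 0.49, and Slc1a3, 0.34). Over all genes tested 6.63% were called higher. Fitted values were above 0 for 5 of these neuron and 6 of these astrocyte markers, and 0 cell type markers were called lower. All 7 calls in the enzyme and partner lists were absent without the replicate block, and the offset for GC and length left 2 calls, where 6.89% of all genes tested were called in either direction.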

How the data were processed

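Primary cortical neuron cultures gave 2 RPS2 eCLIP IP and 2 total RNA libraries. The deposited files hold raw counts per gene, made by the authors with featureCounts 1.5.3 in stranded mode on an mm10 annotation, after trimming with cutadapt and end-to-end alignment with STAR. Reads at several loci or in several genes were not counted, and no removal of PCR duplicates is named. Each file also gives the exonic length of every gene.

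Symbols came from GENCODE M21 and were found for 30934 identifiers, while 119 had none. The test was that of edgeR 4.0.16 in R 4.3.3 (filterByExpr, TMM, glmQLFit and glmQLFTest, two-sided, Benjamini-Hochberg over 12336 genes, threshold 0.05), with the replicate number as a block. Per the study's methods, the total RNA was drawn from the samples used for IP, and deviations of same-numbered libraries from their group means had a correlation of 0.733. The block left 1 residual degree of freedom per gene and an infinite prior, so that all genes shared the dispersion trend. p-values measure only the spread between these libraries, which may be technical. Library totals of 4899718 to 16460545 counts gave limits for a count of 0 (3 counts) of 0.217 to 0.668 CPM. Pair ratios used a prior count of 2, and their intervals are exact conditional 95% intervals for counting error. The script was tested on simulated data.

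Alternatives were a fit without the block, other scalings and filters, an offset for GC content and length, DESeq2 1.42.0, limma-voom (limma 3.58.1) and leaving out replicates. Members, gene lists and the setting of Col8a1 against the other chains were chosen with earlier results of these data known. All chains tested are named. Library values are given for Col8a1, Col8a2, the 10 chains highest in total RNA and the chains called, and from each other list the genes called (at most 4) and the most abundant gene are named. Any other gene given with values was chosen after its values were seen.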

Additional observations from a re-analysis of the deposited data

How the results depend on the processing

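The log2 ratio of Col8a1, given as a description, ran from -2.02 to -1.91 over the blocked alternatives. Against 6 chains called lower, 0 were called without the replicate block, 3 with the GC and length offset, 0 by DESeq2, which gave no adjusted p for 30 of the 35 chains, and 1 by DESeq2 without independent filtering, an alternative chosen after seeing the data. Against 7 calls in the enzyme and partner lists these settings gave 0, 2, 4 and 0. Of all genes tested they called 0, 6.89, 4.38 and 2.95% in either direction. The replicate block changed no direction of a named chain. The median over the chains, -0.24, was -0.31 with library size only and -0.071 with the offset. Leaving out a library removes its pair, so values without a replicate have no test, and the median then ran from -0.34 to -0.29. Signs changed for Col19a1 (-0.0081) and Col25a1 (-0.031) with library size only, for 7 chains with the offset, among them Col26a1 (0.081), Col4a1 (0.015) and Col4a2 (0.19), for Col4a6 (-0.05) and Col1a2 (0.13) by DESeq2, and with a replicate left out for Col19a1 (-0.17 to 0.24) and Col25a1 (-0.17 to 0.31). Of these chains 0 were called in the fit reported. With library size only 7 chains were called lower, Col18a1 besides the 6, where 7.12% of all genes tested were called lower. With at least 10 counts in every library there were 4, of which 3 were among the 6, and the other was Col24a1. In that setting 8.51% of all genes tested were called lower. Col6a4 and Col6a5 were not tested there, and Col9a2 lost its call. With no filter on low counts 5 of the 6 were called, without Col9a2, where 3.86% of all genes tested were called lower. Summed collagen levels on raw library size were 473 and 398 CPM in IP and 603 and 508 in total RNA, and 825, 553, 1001 and 599.7 without the most counted gene in the total. IP stayed below total RNA within each replicate number on all 3 scales. Depth limited the chains under 30 counts in a library, Col6a4 and Col6a5 among them.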

Other observations

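The 9 chains below the count filter were Col3a1, Col4a3, Col4a4, Col6a6, Col8a2, Col13a1, Col15a1, Col17a1 and Col28a1. At these low counts a difference between IP and total RNA was not tested for them in the fit reported. Col4a4 had 24 and 6 counts in IP and 6 and 2 in total RNA, and Col4a3, its neighbour on chromosome 1 and its partner in specialised basement membranes, had 12 and 3 counts and 7 and 2 counts. Col28a1 had 12 and 0 counts in IP and 6 and 0 in total RNA. The collagens of skin and muscle anchoring, Col17a1 and Col13a1, had at most 3 counts and 1 count in a library. Col6a6 had at most 2 counts, and Col15a1 had 9 and 5 counts in IP and 3 and 3 in total RNA.

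No collagen chain shared exonic bases with another gene on the same strand. Exons of Col9a3 overlapped the opposite-strand gene Tcfl5 over 6.07% of their bases, and counting was stranded. Col4a1 and Col4a2 overlapped by 22 bases at their starts.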
